A study of Schizosaccharomyces pombe with 9 samples.

Results

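The genes examined were set1+, ash2+, swd1+, swd2+, swd3+, shg1+, sdc1+, lid2+ and set2+, which encode subunits of the Set1 and Lid2 complexes of fission yeast (Schizosaccharomyces pombe) and the histone methyltransferase Set2. They were found by symbol in the annotation of the array, where each had 1 probe set, and made up 9 of the 2899 S. pombe genes that the annotation named. Their mRNA was measured on 9 Affymetrix arrays, 1 each for ash2Δ, SPAC3F10.17Δ, SPAC27D7.08cΔ, SPBC2A9.02Δ, meu29Δ, sgf73Δ, pab1Δ, sec65Δ and wild type (WT), in exponentially growing cells without treatment (OD600 between 0.5 and 1.0). The deletion strains came from a purchased haploid library, and each is a single strain whose label gives the deleted gene alone. The WT array is labelled SP286, a diploid with the genotype h+ ade6-M210 ura4-D18 leu1-32, so that ploidy and background genotype cannot be told apart from the deletion in any ratio to WT. In the study's flow cytometry, whose WT strain is not named, untreated WT cells had the same DNA content peak as ash2Δ and SPAC3F10.17Δ cells. The ploidy of the WT array is therefore known from its label alone. The study reports a raised DNA content in untreated meu29Δ and sgf73Δ cells, and more so in pab1Δ and sec65Δ cells. It proposes that these strains had become diploid. Ploidy may therefore also differ among the deletions, which bears on any use of the other deletions as a reference. With 1 array per genotype there was no spread between replicates, no difference was tested, and all 8 ratios of a gene share the same WT value.

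Set1 is the catalytic subunit of the complex, known as COMPASS in budding yeast, that methylates lysine 4 of histone H3 (H3K4), a mark of active promoters. The WD40-repeat proteins Swd1, Swd2 and Swd3, the SPRY-domain protein Ash2, the DPY-30-related protein Sdc1 and Shg1 surround it. Ash2 and Sdc1 are also found in a second complex with Lid2, a JmjC-domain protein of the family that removes H3K4 methylation. Set2 belongs to neither complex and methylates lysine 36 of histone H3 (H3K36) on transcribed genes.

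All 9 transcripts were detected. Background on each array was the 95th percentile of the S. cerevisiae probe sets that the same array carries, a log2 signal of 5.18 to 5.33, and outside ash2Δ the lowest member signal was 7.00, for swd3+. The label of ash2Δ was borne out by its own transcript. The ash2+ signal was 31.6 in ash2Δ, under the background of 39.3, against 905 in WT, and was therefore at least 23.0 times lower in ash2Δ. In the same way the transcripts of sgf73+ and meu29+ were 33.8 and 12.6 times lower in their own deletions than in WT. On the array labelled pab1Δ, pab1+ mRNA still had a ratio to WT of 0.609, and on the array labelled sec65Δ, sec65+ mRNA had one of 0.679, so that neither loss was shown. The genes SPAC3F10.17, SPAC27D7.08c and SPBC2A9.02 had no named probe set, and their deletions were not checked here.

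**Figure D1:**
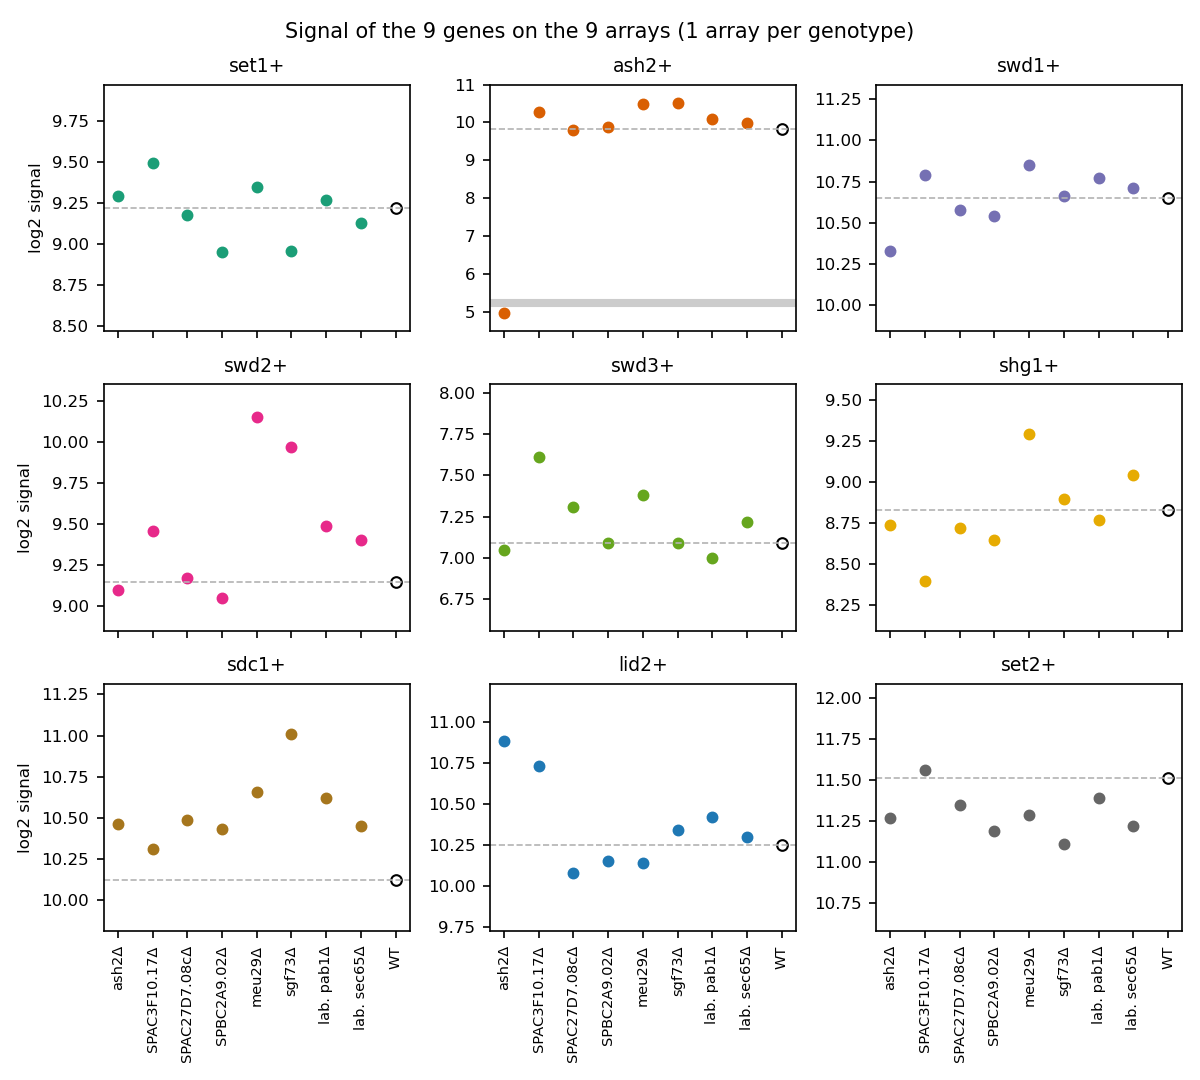
Log2 signal of each gene (vertical axis; each panel spans 1.5 log2 units, except that of ash2+) on the 9 arrays, with the 8 deletions as filled points, WT as an open circle and its level as a dashed line. The grey band in the ash2+ panel is the background of 5.18 to 5.33, and the ash2+ signal of 4.98 in ash2Δ lies under it; "lab." marks the arrays named only by their label.

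Apart from ash2+ in its own deletion, most ratios of the 9 transcripts lay near WT, as did most ratios of all measured genes. Of 71 ratios to WT, 65 lay within 1.5-fold, 6 (8.45%) were at least 1.5-fold higher and 0 were at least 1.5-fold lower. Over all measured genes and the 8 deletions, 4.95% of ratios were at least 1.5-fold higher and 4.55% at least 1.5-fold lower. At 2-fold, the threshold of the study, 1 member ratio was higher and 0 were lower, beside 1.38% higher and 1.54% lower over all genes. The 6 ratios belonged to lid2+ in ash2Δ, to ash2+ and swd2+ in meu29Δ, and to ash2+, swd2+ and sdc1+ in sgf73Δ. The genes set1+, swd1+, swd3+, shg1+ and set2+ stayed within 1.5-fold of WT in all 8 deletions, with ratios between 0.743, for shg1+ in SPAC3F10.17Δ, and 1.43, for swd3+ in the same deletion. No share of all genes that did so was computed, so this does not set these genes apart. The count of 6 rests on 2 arrays: it was 3 without the sgf73Δ array and 1 without the arrays of sgf73Δ and meu29Δ. It rests as much on the WT array, since with the median over the other 7 deletions in place of WT the count was 1, swd2+ in meu29Δ.

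**Figure D2:**
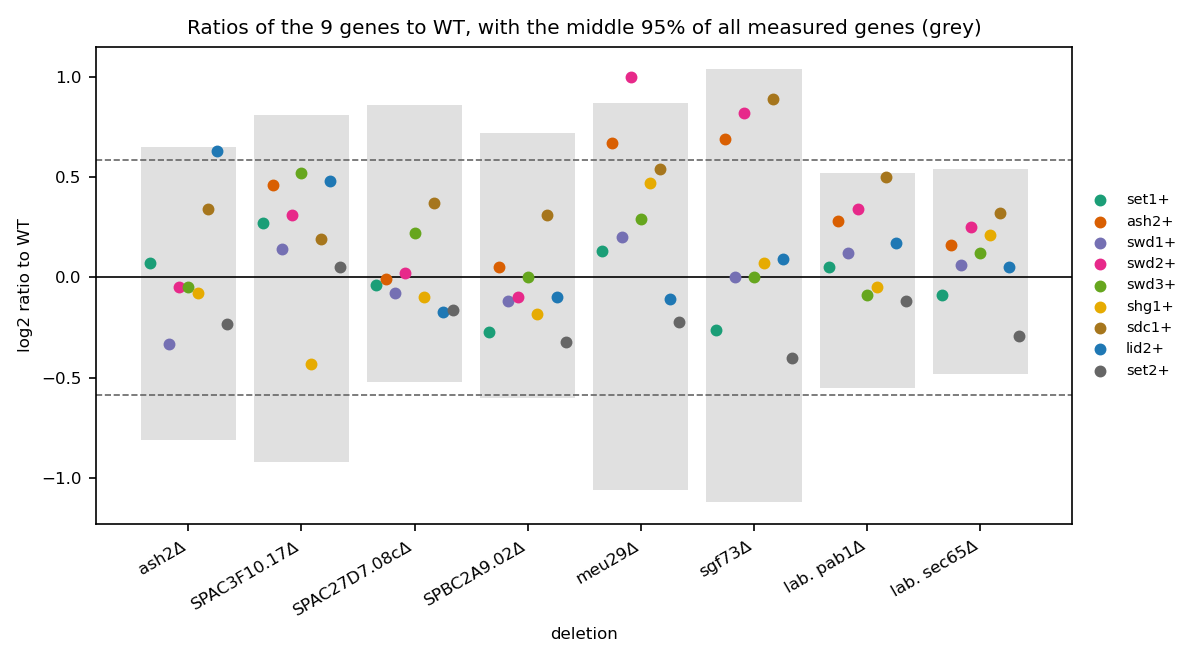
Log2 ratio to WT (vertical axis) of the 9 genes in each deletion (horizontal axis), with 1 point per gene; ash2+ in its own deletion is left out. Grey boxes span the middle 95% of all measured genes on that array and dashed lines mark 1.5-fold; swd2+ in meu29Δ, at 1.00, is the point outside its box, which ends at 0.87.

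The catalytic subunit gene set1+ stayed within 1.5-fold of WT and varied about as much as the median gene. Its log2 signal was 9.29 in ash2Δ, 9.49 in SPAC3F10.17Δ, 9.18 in SPAC27D7.08cΔ, 8.95 in SPBC2A9.02Δ, 9.35 in meu29Δ, 8.96 in sgf73Δ, 9.27 in the array labelled pab1Δ and 9.13 in the array labelled sec65Δ, against 9.22 in WT. WT thus lay in the middle of the order, with 4 deletions above it and 4 below. The highest and lowest ratios were 1.21 in SPAC3F10.17Δ and 0.827 in SPBC2A9.02Δ. The SD over the 9 arrays was 0.18, beside 0.20 for the median gene, and 40.7% of genes varied less.

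The gene swd1+, which encodes the counterpart of mammalian RbBP5, was lowest in ash2Δ. Its log2 signal was 10.33 in ash2Δ, 10.79 in SPAC3F10.17Δ, 10.58 in SPAC27D7.08cΔ, 10.54 in SPBC2A9.02Δ, 10.85 in meu29Δ, 10.66 in sgf73Δ, 10.77 in the array labelled pab1Δ and 10.71 in the array labelled sec65Δ, against 10.65 in WT. The gap of 0.21 between ash2Δ and the next array was the one gap in the order that exceeded 0.142. This value is the SD over all genes of the log2 differences between the 2 closest arrays, those labelled pab1Δ and sec65Δ. The next smallest SD of any pair of arrays was 0.288. Between the arrays labelled pab1Δ and sec65Δ, 8 members, without ash2+, differed by a median of 0.16 and by up to 0.27. A gap past 0.142 therefore does not set an array apart by itself. In ash2Δ the ratio of swd1+ to WT was 0.797.

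With ash2+ in its own deletion left out, swd2+ varied most among the 9 genes. Its log2 signal was 9.10 in ash2Δ, 9.46 in SPAC3F10.17Δ, 9.17 in SPAC27D7.08cΔ, 9.05 in SPBC2A9.02Δ, 10.15 in meu29Δ, 9.97 in sgf73Δ, 9.49 in the array labelled pab1Δ and 9.40 in the array labelled sec65Δ, against 9.15 in WT. The signals of meu29Δ and sgf73Δ stood apart from the rest, with a gap of 0.48 to the next array. The ratio to WT was 1.77 in sgf73Δ and 2.0002 in meu29Δ, so that swd2+ in meu29Δ sat on the 2-fold threshold itself, and the call at 2-fold was lost under median scaling, quantile normalization and a pseudocount. Set against the other 7 deletions, the log2 difference was 0.75 in meu29Δ and 0.57 in sgf73Δ, and the 1.5-fold call was lost in sgf73Δ. The SD over the 9 arrays was 0.39, and 87.6% of genes varied less. A paralogue, swd22+, which acts in mRNA 3' end formation, had no named probe set.

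The smaller subunit genes swd3+ and shg1+ each had 1 array that stood high. The log2 signal of swd3+, the counterpart of mammalian WDR5, was 7.05 in ash2Δ, 7.61 in SPAC3F10.17Δ and between 7.00 and 7.38 in the other 6 deletions, against 7.09 in WT. Of the 9 probe sets, it was the closest to background. The log2 signal of shg1+ was 8.74 in ash2Δ, 8.40 in SPAC3F10.17Δ, 9.29 in meu29Δ and between 8.65 and 9.04 in the other 5 deletions, against 8.83 in WT. SPAC3F10.17Δ therefore held the highest swd3+ signal and the lowest shg1+ signal of the 9 arrays.

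The 2 genes whose products are shared by both complexes, ash2+ and sdc1+, were higher than WT in most deletions. Outside its own deletion, the log2 signal of ash2+ was 10.28 in SPAC3F10.17Δ, 9.81 in SPAC27D7.08cΔ, 9.88 in SPBC2A9.02Δ, 10.49 in meu29Δ, 10.51 in sgf73Δ, 10.10 in the array labelled pab1Δ and 9.98 in the array labelled sec65Δ, against 9.82 in WT. The ratios of 1.59 in meu29Δ and 1.61 in sgf73Δ passed 1.5-fold, and these arrays differed from each other by 0.02. Set against the other 7 deletions, ash2+ was 0.51 higher in meu29Δ and 0.53 higher in sgf73Δ on the log2 scale, and both calls were lost. The log2 signal of sdc1+ was 10.46 in ash2Δ, 10.31 in SPAC3F10.17Δ, 10.49 in SPAC27D7.08cΔ, 10.43 in SPBC2A9.02Δ, 10.66 in meu29Δ, 11.01 in sgf73Δ, 10.62 in the array labelled pab1Δ and 10.45 in the array labelled sec65Δ, against 10.12 in WT. WT was the lowest of the 9 arrays for sdc1+, by a gap of 0.19, and sgf73Δ the highest, by a gap of 0.35. The ratio to WT ran from 1.14 to 1.85, and WT was likewise the lowest array for 8.85% of the 2860 genes measured in all 8 ratios. Against the median of the other 7 deletions in place of WT, sdc1+ lay between -0.17 and 0.55 on the log2 scale, with sgf73Δ the highest, and 0 values passed 1.5-fold.

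The demethylase gene lid2+ was highest in the strain that lacks its partner Ash2. Its log2 signal was 10.88 in ash2Δ, 10.73 in SPAC3F10.17Δ, 10.08 in SPAC27D7.08cΔ, 10.15 in SPBC2A9.02Δ, 10.14 in meu29Δ, 10.34 in sgf73Δ, 10.42 in the array labelled pab1Δ and 10.30 in the array labelled sec65Δ, against 10.25 in WT. The ratio to WT was 1.55 in ash2Δ and 1.39 in SPAC3F10.17Δ, and between 0.887 and 1.13 in the other 6 deletions. Both arrays at the top were separated from the rest by a gap of 0.30, whereas the gap between them, 0.15, was close to the 0.142 of the closest arrays.

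The signal of set2+ was the steadiest of the 9. It was 11.27 in ash2Δ, 11.56 in SPAC3F10.17Δ, 11.35 in SPAC27D7.08cΔ, 11.19 in SPBC2A9.02Δ, 11.29 in meu29Δ, 11.11 in sgf73Δ, 11.39 in the array labelled pab1Δ and 11.22 in the array labelled sec65Δ, against 11.51 in WT, all on the log2 scale. WT ranked second of the 9 arrays, and the ratios ran from 0.760 in sgf73Δ to 1.04 in SPAC3F10.17Δ. Of the 2860 genes measured in all 8 ratios, 14.7% likewise lay below WT in 7 or 8 deletions. The largest gap between neighbours in the order was 0.12, under the 0.142 of the closest arrays. Its SD of 0.15 was larger than that of 28.9% of genes.

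**Figure D3:**
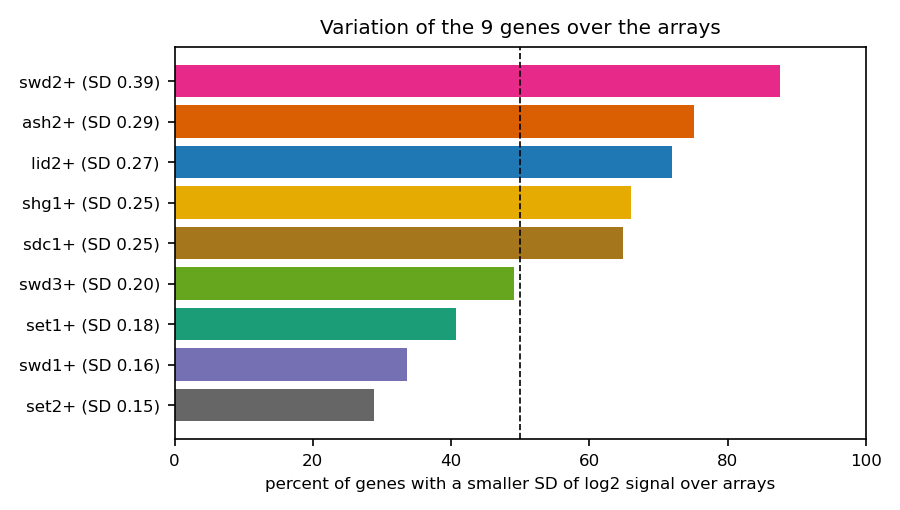
Percentage of genes whose log2 signal had a smaller SD over the arrays (horizontal axis) for each of the 9 genes, with its own SD beside the name; ash2+ was taken over 8 arrays without ash2Δ and the other genes over 9. The bars reach from 28.9% for set2+ to 87.6% for swd2+, and the dashed line marks the median gene.

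In ash2Δ the loss of the ash2+ transcript was accompanied by 1 of the other 8 genes past 1.5-fold, lid2+, with 0 of the 8 at least 1.5-fold lower. Of all genes measured in ash2Δ, 3.00% were at least 1.5-fold higher than in WT and 5.54% at least 1.5-fold lower. The median log2 ratio of the 8 genes was -0.05, beside -0.01 for all genes. Because WT is a single array, each gene was also set against the median of the other 7 deletions. Here lid2+ was 0.58 higher in ash2Δ on the log2 scale, which fell just short of 1.5-fold, so that its call was lost against this reference. It lay above all 7 arrays, and 98.5% of genes had a lower difference. The gene swd1+ was 0.39 lower, at a ratio of 0.765, and lay below all 7. The other 6 genes lay inside the range of the 7 deletions: the log2 differences were 0.11 for set1+, -0.35 for swd2+, -0.17 for swd3+, -0.03 for shg1+ and for sdc1+, and -0.01 for set2+. Over all genes, 9.57% lay above all 7 and 16.8% below all 7, so that 1 of 8 on either side was near the background. The sdc1+ ratio of 1.26 to WT in ash2Δ had no counterpart against the other deletions, whose median it nearly met.

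**Figure D4:**
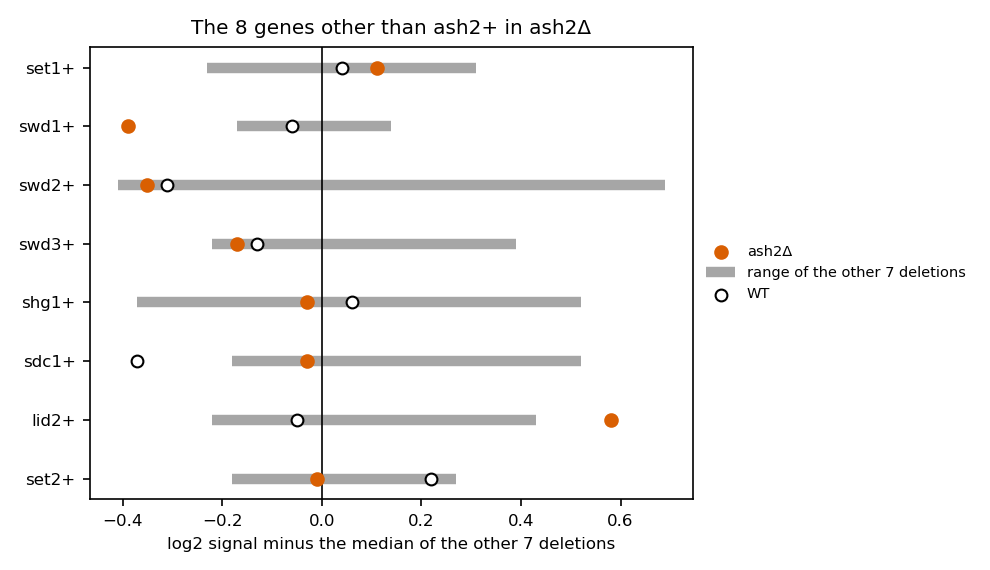
Log2 signal of the 8 genes other than ash2+ (rows) minus the median of the other 7 deletions (horizontal axis), with ash2Δ as orange points, the range of the other 7 deletions as grey bars and WT as open circles. In ash2Δ, lid2+ at 0.58 lies right of its bar and swd1+ at -0.39 left of its bar, whereas WT lies outside the bar for sdc1+.

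The genes beside ash2+ on the chromosome showed smaller differences. The adjacent gene swf1+, a palmitoyltransferase gene, had a ratio to WT of 0.808 in ash2Δ, below its range of 0.906 to 1.23 in the other 7 deletions. In ash2Δ, 16.8% of all genes likewise lay below all 7. Beyond swf1+, isd11+ stood at 1.06 in ash2Δ, within 0.780 to 1.13. On the other side, the first genes with a named probe set were mug81+, at 1.13 within 0.922 to 1.19, and ykt6+, at 1.10 within 0.973 to 1.12.

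In meu29Δ and sgf73Δ the highest ratios of the set coincided. The study placed both mutants in the same group by DNA content, and the part of ploidy in these ratios was not tested. Sgf73 anchors the histone H2B deubiquitinating module to the SAGA complex. In meu29Δ, 2 of 9 genes were at least 1.5-fold higher and 0 lower, beside 8.53% of all genes higher and 7.66% lower. In sgf73Δ, 3 of 9 were at least 1.5-fold higher and 0 lower, beside 8.96% higher and 9.45% lower. The median log2 ratio of the 9 genes was 0.29 in meu29Δ and 0.07 in sgf73Δ, beside 0.064 and 0.058 for all genes. The same 2 arrays differed in the remaining genes: set1+ had a ratio of 1.10 in meu29Δ and 0.835 in sgf73Δ, and shg1+ of 1.38 and 1.05. The swd2+ ratio in meu29Δ was the 1 member ratio outside the middle 95% of all genes on its array, which ran from -1.06 to 0.87 on the log2 scale.

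Markers of P cells, the h+ mating type, were also high in these 2 arrays. The genes map1+, map2+ and map3+, a regulator, a pheromone and a receptor gene, were the 3 of 5 listed P-cell genes with a named probe set, and all 3 exceeded WT by 2-fold or more in meu29Δ and sgf73Δ. The map2+ ratio was 2.28 in meu29Δ and 129 in sgf73Δ. The same held in SPAC27D7.08cΔ and SPBC2A9.02Δ, where map2+ stood at 67.7 and 116 and where 0 of the 9 genes passed 1.5-fold. The summed signal of the 3 genes was 1644 in meu29Δ and 15674 in sgf73Δ, and 511 to 14187 in the other 6 deletions, against 635 in WT, itself labelled h+, with none of the 3 at background on any array. For M cells, the opposite mating type, 6 of 8 listed genes had a named probe set, all above background on every array, and their summed signal was 1747 in meu29Δ and 2094 in sgf73Δ, and 1594 to 4505 in the other 6 deletions, against 1585 in WT. The median log2 ratio of these 6 genes was 0.25 in meu29Δ and 0.48 in sgf73Δ, and -0.09 in ash2Δ, -0.00 in SPAC3F10.17Δ and 0.09 to 0.91 in the other 4 deletions. Their members did not move together: in meu29Δ and sgf73Δ the receptor gene mam2+ stood at 1.68 and 1.58 and mam1+ at 0.747 and 0.731, both named after their values were seen. The M-factor gene mfm2+ passed 2-fold in every deletion but meu29Δ, up to 27.7 in SPAC3F10.17Δ, where mfm1+ stood at 0.991 and mfm3+ at 0.717. The mfm1+ ratio passed 2-fold in SPAC27D7.08cΔ, at 3.83, and SPBC2A9.02Δ, at 2.34. In ash2Δ, mfm2+ stood at 2.22, mfm3+ at 1.71, mfm1+ at 0.967 and, of the P-cell genes, map1+ at 0.613. The part of mating type in the levels of ash2+, swd2+ and sdc1+ was not tested.

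None of the 9 genes reached 1.5-fold in either direction in the other 5 deletions, in which the shares of all genes differed widely. In SPAC3F10.17Δ, 0 of 9 passed beside 6.41% of genes higher and 5.19% lower, although 8 of 9 lay above WT and the median of 0.27 exceeded the 0.072 of all genes. In SPAC27D7.08cΔ, 0 of 9 passed beside 5.02% higher and 1.71% lower, with a median of -0.04. In SPBC2A9.02Δ, 0 of 9 passed beside 3.38% higher and 2.83% lower, with a median of -0.10. On the array labelled pab1Δ, 0 of 9 passed beside 2.13% higher and 2.26% lower, with a median of 0.12. On the array labelled sec65Δ, 0 of 9 passed beside 2.16% higher and 1.74% lower. Its median was also 0.12, and was -0.04 when the median of the other 7 deletions replaced WT.

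Across the arrays other than ash2Δ, some of the genes followed each other. Pearson's r of the log2 signals over these 8 arrays is a description of arrays that share 1 processing and has no replicates behind it. Over the 36 pairs of genes the median r was 0.34, beside 0.03 over all pairs of 2840 genes. The highest was 0.94, between ash2+ and swd2+, and 0.278% of all gene pairs reached that value. Without the arrays of meu29Δ and sgf73Δ it was 0.83 over 6 arrays. The methyltransferase genes set1+ and set2+ had an r of 0.81, reached by 3.72% of all gene pairs, and 0.88 over the 6 arrays. For ash2+ and sdc1+, whose products share both complexes, r was 0.70 over 8 arrays and 0.17 over 6, and for ash2+ and lid2+ it was 0.34 over 8 and 0.96 over 6, so that both values depended on meu29Δ and sgf73Δ. The lowest r was -0.71, between sdc1+ and set2+, and 6.59% of all gene pairs lay at or under it. The highest and lowest r were picked from 36 pairs, whereas each share is that of a single gene pair. The shares therefore understate how often such extremes arise. No share over all pairs was computed for 6 arrays.

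Each of the 9 genes had other genes with a closer pattern than any of the other 8. Over 8 arrays without ash2Δ, the genes most like ash2+ were prp19+, a splicing factor gene, elg1+ and sub1+, with r of 0.994, 0.989 and 0.980. Over all 9 arrays, the genes most like swd2+ were ctf18+, rpa34+ and trm13+, with r of 0.977, 0.966 and 0.956. For lid2+ they were tup11+, a corepressor gene, alg5+ and end3+, at 0.930, 0.891 and 0.890, and for sdc1+ get1+, aps3+ and cyp1+, at 0.959, 0.927 and 0.918. The genes most like set1+ were rpl3201+, spe2+ and pik1+, at 0.915, 0.900 and 0.895, and those most like swd1+ were cut11+, cut14+ and rfc1+, at 0.961, 0.951 and 0.910. For swd3+ they were hrf1+, vps51+ and vma11+, at 0.971, 0.948 and 0.947, for shg1+ apl6+, rga8+ and sen1+, at 0.910, 0.904 and 0.902, and for set2+ akr1+, plc1+ and ppr4+, at 0.921, 0.868 and 0.867. These are the highest of 2833 correlations over 9 points, or of 2839 over 8 points for ash2+.

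Other genes of the same pathways were read from lists. The Set1 complex was complete on the array, with spf1+ as the gene of the PHD-finger subunit Spp1, and 5 of its 63 ratios (7.94%) were at least 1.5-fold higher and 0 lower. All 5 were ratios of ash2+, swd2+ and sdc1+ already counted above, so that they add no further gene. Here and for the lists that follow, the shares over all genes and deletions were 4.95% higher and 4.55% lower. The spf1+ transcript stayed within ratios of 0.807 to 1.12. Its log2 signals of 5.89 to 6.37 lay close to the background of 5.18 to 5.33, so that these ratios say little about its stability. Of the Lid2 complex, 4 of 5 genes were named, and snt2+, which encodes a further subunit, stayed between 0.811 and 1.09. In this list 4 of 31 ratios (12.9%) were at least 1.5-fold higher and 0 lower, and these too were already counted above.

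Ubiquitination of histone H2B precedes H3K4 methylation by Set1, and brl2+ encodes a subunit of the ubiquitin ligase that performs it. The log2 signal of brl2+ was 11.60 in ash2Δ, 10.54 in SPAC3F10.17Δ, 10.03 in SPAC27D7.08cΔ, 10.39 in SPBC2A9.02Δ, 10.46 in meu29Δ, 10.38 in sgf73Δ, 10.34 in the array labelled pab1Δ and 10.31 in the array labelled sec65Δ, against 10.20 in WT. At 2.63 times its WT level in ash2Δ, it lay above all 7 other deletions, whose ratios were 0.889 to 1.27. In ash2Δ, 9.57% of all genes lay above all 7. The gene brl2+ was 1 of 6 named genes of a list of 10 for H2B ubiquitination and the Paf1 complex. In this list 1 of 48 ratios (2.08%) was at least 1.5-fold higher and 0 were lower. The other 5 genes thus stayed within 1.5-fold in all 8 deletions, and no share of all genes that did so was computed.

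The list of JmjC and Lsd genes, which joins separate families and includes lid2+ itself, did not as a whole follow lid2+ in ash2Δ. In ash2Δ, where lid2+ stood at 1.55, jmj2+ had a ratio of 0.662 and the median log2 ratio of the 11 named genes was -0.14, beside -0.01 for all genes. In sgf73Δ, 4 of 11 were at least 1.5-fold lower and 1 higher, beside 9.45% of all genes lower and 8.96% higher, with a median of -0.52 beside 0.058 for all genes. The 4 were epe1+ at 0.521, jmj1+ at 0.566, msc1+ at 0.621 and jmj2+ at 0.641, of which epe1+ encodes a JmjC protein that limits heterochromatin; epe1+, jmj1+ and msc1+ are named here after their values were seen. In all, 8 of 88 ratios of this list (9.09%) were at least 1.5-fold lower and 4 (4.55%) higher.

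Among the 10 other SET domain genes, 8 of 80 ratios (10%) were at least 1.5-fold higher and 5 (6.25%) lower. All 5 lower ratios belonged to clr4+, the gene of the histone H3 lysine 9 methyltransferase of heterochromatin. The log2 signal of clr4+ was 5.81 in ash2Δ, 5.68 in SPBC2A9.02Δ and between 6.01 and 6.20 in the other 6 deletions, against 6.71 in WT, so that WT was the highest of the 9 arrays. Its ratios were 0.535 in ash2Δ, 0.488 in SPBC2A9.02Δ and 0.613 to 0.702 in the others. Its signals lay close to the background of 5.18 to 5.33. WT was likewise the highest array for 5.66% of the 2860 genes measured in all 8 ratios. All clr4+ ratios share the WT value, and clr4+ was not set against the other deletions. The genes set5+ and set7+ were highest in the same 2 deletions as ash2+ and swd2+, at 2.03 and 1.55 for set5+ and 2.03 and 2.16 for set7+ in meu29Δ and sgf73Δ. In ash2Δ they stood at 1.02 and 1.04.

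Set2 acts with elongating RNA polymerase II, and lsg1+ encodes a subunit of a kinase of the polymerase tail. The lsg1+ ratio was 2.21 in meu29Δ and 2.88 in sgf73Δ, but 0.726 in ash2Δ and between 0.987 and 1.26 in the other 5. It gave 2 of the 3 ratios (4.69%) at least 1.5-fold higher among 64 of the elongation kinases and factors, of which 0 were lower. The 12 genes of the Set3 and Clr6 deacetylase complexes had 1 of 96 ratios (1.04%) at least 1.5-fold higher and 0 lower. The histone genes, which encode the substrates, had median log2 ratios of 0.15 to 0.39, beside -0.029 to 0.072 for all genes. Of their 80 ratios, 6 (7.5%) were at least 1.5-fold higher and 0 lower. All these ratios share the WT array, and the histone genes were not set against the other deletions. Of the 6 higher ratios, 4 belonged to hhf3+, a histone H4 gene, whose ratio was 1.37 to 1.90 over the 8 deletions and 1.74 in ash2Δ. WT was the lowest array for hhf3+, at a log2 signal of 12.0 beside 12.46 to 12.93 in the deletions. Histone H4 genes are close in sequence, and cross-hybridization between their probe sets was not tested.

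**Figure D5:**
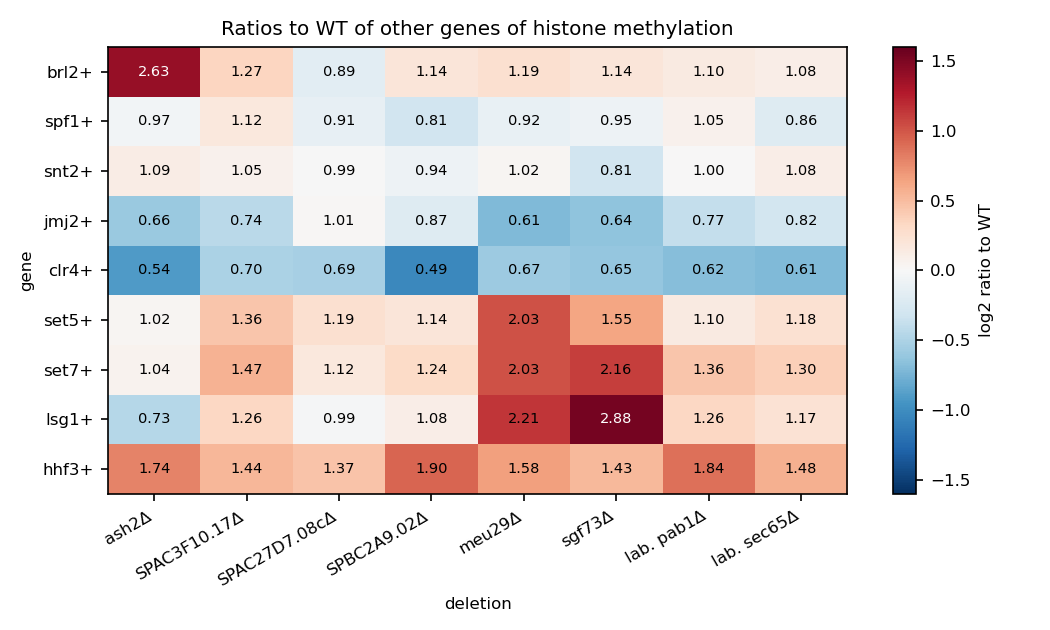
Ratio to WT, printed in each cell and coloured on a log2 scale, of 9 genes from the related lists (rows) in the 8 deletions (columns). Among them, brl2+ belongs to H2B ubiquitination and lsg1+ to a kinase of the polymerase tail. The highest value in ash2Δ is 2.63 for brl2+, the row of clr4+ is under 1 throughout, and set5+, set7+ and lsg1+ are highest in meu29Δ and sgf73Δ.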

How the data were processed

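Total RNA was labelled and hybridised to Affymetrix Yeast Genome 2.0 arrays, 1 per genotype. The values deposited by the authors were normalized log2 signals. MAS5 appears in the submitters' processing notes with no role, and the normalization was not given in the sources used here. Of 10928 probe sets, 5518 had 1 gene symbol, 20 had several and 5390 had none, and 2917 were matched to 2899 S. pombe genes through the RefSeq gene table, used for names and neighbours only.

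On each array, 2601 probe sets of S. cerevisiae gave the background, as their 95th percentile, which was exceeded by 2855 to 2872 genes. Signals under it were set to it, and a ratio was used if 1 or both of its arrays exceeded it (2866 to 2878 genes). Array medians were 10.48 to 10.58, and values were not normalized again.

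Genes named were the 9 members, the deleted genes, named neighbours of ash2+, the 3 most correlated genes per member, brl2+ and list genes past 2-fold in any deletion or past 1.5-fold in ash2Δ. Named outside this rule, after their values were seen, were spf1+ and snt2+, subunits of the complexes, and epe1+, jmj1+, msc1+, mam1+ and mam2+. Members, lists and thresholds were chosen with earlier results of these data known. Alternatives were median scaling, quantile normalization, no floor, the 99th percentile as background, 50 signal units added as a pseudocount, averaging a gene's probe sets, the other 7 deletions (their median) as reference, and arrays left out. The procedure was tested on simulated data. Python 3.11.15, numpy 2.4.6, pandas 2.3.3 and matplotlib 3.10.9 were used.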

Additional observations from a re-analysis of the deposited data

How the results depend on the processing

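The counts depended most on the reference and on 2 arrays. The 1 member ratio past 2-fold became 0 under median scaling, under quantile normalization, with a pseudocount of 50 signal units, with the other 7 deletions (their median) in place of WT, and without the arrays of sgf73Δ and meu29Δ. The 6 ratios past 1.5-fold became 1 with the other 7 deletions as the reference, 1 without the arrays of sgf73Δ and meu29Δ, and 3 without the sgf73Δ array. The log2 ratio of ash2+ in ash2Δ, -4.53, was -4.84 with no floor, -3.74 with the background at the 99th percentile, -3.55 with the pseudocount and -4.80 against the other 7 deletions. The median in the array labelled sec65Δ, 0.12, was -0.04 against the other 7 deletions. In ash2Δ against the other deletions, swd3+ was -0.17 and became 0.16 under quantile normalization, and lid2+ was 0.58 and became 0.73 without the arrays labelled sec65Δ and pab1Δ. The ash2+ signal in ash2Δ lies under the background, so its ratio changes with the floor and the pseudocount by definition. Without the arrays labelled sec65Δ and pab1Δ, lid2+ was set against the median of fewer deletions. The cause of the remaining changes was not tested. Of 504 single ratios under 7 alternatives, 465 moved by less than 0.142 and 39 by more, of which 32 under the other reference, and 0 ratios past the threshold changed direction. Leaving out the arrays of sgf73Δ and meu29Δ together, and each deletion in turn, was chosen after seeing the data. Leaving out the arrays labelled sec65Δ and pab1Δ does not bear on the medians of other deletions, each of 1 array. No paired analysis was possible because each genotype had 1 array. The number of arrays limits the precision of every value, and probe sets near background, of which swd3+ is the closest of the 9, are measured least well.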
